A study of Mus musculus with 6 samples.

Results

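The genes described here encode the Slit ligands, the Robo receptors and the srGAP adaptors of the mouse pharyngeal arches at embryonic day 9.5. They were taken by symbol from the 14647 genes of the table (*Slit1*, *Slit2*, *Slit3*, *Robo1*, *Robo2*, *Robo3*, *Robo4*, *Srgap1*, *Srgap2* and *Srgap3*). Of these 10 symbols 9 were listed, and *Robo3* was not analysed here. All 9 passed the filter on low values, which asked for 0.5 RPKM or more on average. RPKM counts reads relative to gene length and to library size, so that a comparison of levels between genes depends on the gene lengths used. The family was chosen by the measured log2 RPKM of the Slit ligands, which were already known to be lower in *Pax9*-null embryos in these libraries. The values of the ligands are therefore given as a description, and no *P* value of a single ligand is printed. The ligands are included where calls are counted over all 9 genes, and those counts are no evidence about the ligands. The calls of the receptors and adaptors come from the same contrast, so that they describe these libraries and are not independent evidence.

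RNA was sequenced from the dissected pharyngeal region of 3 *Pax9*-null (*Pax9*-/-) and 3 wild-type embryos, which were stage-matched and of mixed sex, on a C57Bl/6J background. The deletion was present in every cell of the embryo, and the tissue held endoderm, neural crest, mesoderm, vessels and part of the neural tube and heart together. The sample labels name sorted cells and another library protocol than the study's methods, and the description in the methods was followed. In such bulk tissue, fewer cells of a type and less RNA per cell cannot be told apart.

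Slit proteins are large secreted glycoproteins that bind the immunoglobulin domains of Robo receptors on the cell surface. Binding is best known for repelling growing axons from the midline of the nervous system, and the same system guides migrating neural crest and other cells and acts in heart and vessel development. Robo receptors have no enzyme activity of their own. The srGAP proteins attach to the intracellular tails of some Robo receptors and pass the signal on to the actin cytoskeleton.

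*Slit2* and *Slit3* each carry a copy of the same microRNA, miR-218, on their own strand and outside their annotated exons. Mir218-1 lies at chr5:48223966-48223986 within *Slit2*, and Mir218-2 at chr11:35616840-35616860 within *Slit3* (GRCm38, + strand for both). The mature sequences were taken from RefSeq (GRCm38.p6), with the seed, bases 2 to 8, in capitals. They are shown because matches to this seed were searched in the transcripts, as described below.
Mir218-1, miR-218-5p: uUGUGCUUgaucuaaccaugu
Mir218-2, miR-218-5p: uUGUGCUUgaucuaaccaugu
Both loci give the same mature strand of 21 bases. Neither microRNA is a row of the table, so that its level is unknown here.

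The letters complementary to this seed, AAGCACA, were searched on the transcript strand in the longest 3′ untranslated region of each gene in GENCODE M21. They occurred in 17.5% of 12879 genes of the table with such a region. *Robo1* held 1 match in 1733 bases and *Robo2* held 2 in 3987 bases. Of the regions from 0.8 to 1.25 times as long, 18.7% and 37.7% held a match. *Slit2* (2 matches), *Srgap2* and *Srgap3* (1 each) also held the letters, where 33.9%, 38.1% and 42.4% of the regions of like length did. *Slit1*, *Slit3*, *Robo4* and *Srgap1* did not, where 11.8%, 2.6%, 26.9% and 40.0% of the regions of like length did. The receptor matches are printed with the complement of the seed in capitals. They lie at chr16:73045336-73045360 (+ strand) for *Robo1*, and at chr16:73895353-73895377 and chr16:73893027-73893051 (− strand) for *Robo2*, each within 1 exon.
Robo1: ttttggttttaaAAGCACAatcact
Robo2, upstream match: ttatttggtgatAAGCACAaatctc
Robo2, downstream match: cacggcagacccAAGCACAgcttct
A match of letters is a description of the sequence and does not show that the site is used.

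*Pax9* itself checked the genotype labels. Its log2 RPKM was −0.43, −0.63 and −0.59 in *Pax9*-null replicates 1 to 3 and 0.63, 0.71 and 0.96 in wild-type replicates 1 to 3. The groups did not overlap, and the mean difference left 40.1% of the wild-type level (adjusted *P*=0.0155 by limma). The values are per gene, so that the exons holding the remaining reads were not analysed here. Effective library sizes, worked out from the values, ran from 11510104 to 11728374 reads in the *Pax9*-null and from 12352568 to 12692090 reads in the wild-type libraries. All 7 pharyngeal endoderm markers were listed (median log2 difference −0.32). Of these, 5 had a lower mean in *Pax9*-null embryos, as did 50.2% of all tested genes. *Pax9* alone was called, where 12.0% of all tested genes were called lower. As the deleted gene, *Pax9* is lower by genotype, but it counts in the 5, the median and the sum. Of the others, *Pax1*, *Cdh1*, *Foxa1* and *Hoxa3* had a lower mean, and *Epcam* and *Foxa2* a higher one. The sum of the 7 markers, to which *Epcam* gave the most, was 43.3 to 54.3 RPKM in *Pax9*-null and 47.1 to 51.6 RPKM in wild-type libraries. *Pax1* had a log2 difference of −0.74 without overlap of the groups (adjusted *P*=0.101 by limma). Wild-type replicate 3 stood apart in its cardiomyocyte markers, which summed to 45.8 RPKM against 441 to 720 RPKM in the other 5 libraries. Primitive erythroid markers summed to 2570 to 4740 RPKM in *Pax9*-null and 2330 to 2420 RPKM in wild-type libraries.

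All 9 genes had a lower mean log2 RPKM in *Pax9*-null than in wild-type embryos, with a median log2 difference of −0.70. Over all 13547 tested genes the median was 0, and 50.2% of the genes had a difference below 0. The differences of the 9 genes ran from −0.99 for *Slit1* to −0.30 for *Robo2*. By role, the median was −0.82 for the 3 ligands, −0.76 for the 3 receptors and −0.46 for the 3 adaptors. For the 6 receptor and adaptor genes together the median was −0.58. In limma across all tested genes, with a call at an adjusted *P* of at most 0.1, 4 of these 6 were called lower, as were 12.0% of all tested genes. The *Pax9*-null libraries all lay below the wild-type libraries for 3 of the 6 and for 20.1% of all tested genes, and 21.8% of all tested genes lay wholly above. Nothing is read from these shares, since the same contrast was known when the family was chosen.

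**Figure D1:**
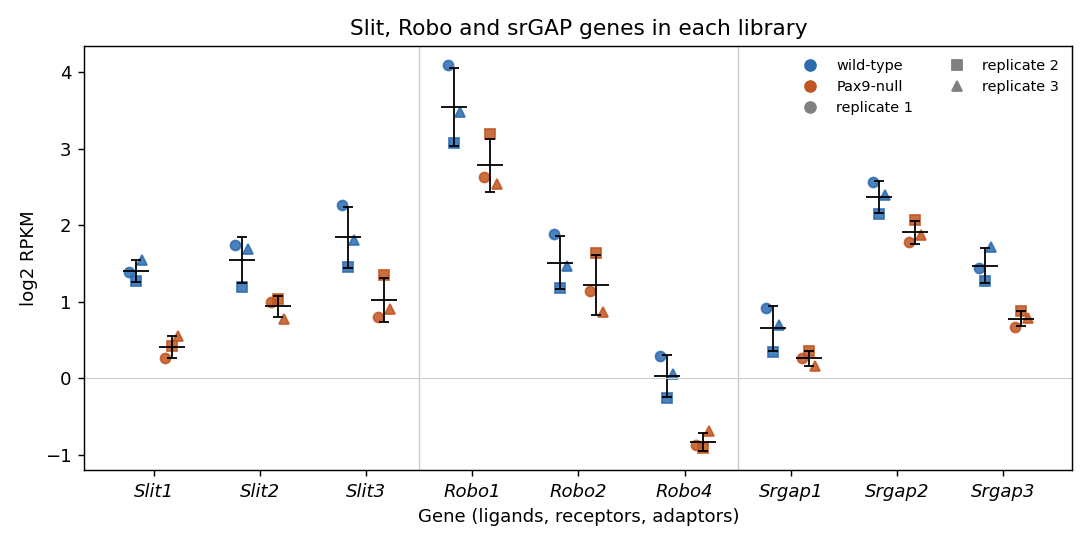
Expression of the 9 listed genes as log2 RPKM (vertical axis) in each of the 6 libraries, with wild-type in blue, *Pax9*-null in orange and the replicate number shown by the symbol. Black bars are the mean ± SD of 3 libraries. The genotypes are apart for *Slit1*, *Slit2*, *Slit3*, *Robo4*, *Srgap2* and *Srgap3* and overlap for *Robo1*, *Robo2* and *Srgap1*, and wild-type replicate 2 is the lowest wild-type library for all 9.

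Of the ligands, *Slit1* (ENSMUSG00000025020, chr19:41600257-41743665, GRCm38) had the widest gap between genotypes. It is expressed mainly in the nervous system. Its log2 RPKM was 0.27, 0.42 and 0.55 in *Pax9*-null replicates 1 to 3 and 1.39, 1.27 and 1.55 in wild-type replicates 1 to 3. The spread within each genotype was 0.28 in log2, and the difference between the genotype means was −0.99. The mean log2 RPKM was 1.4 ± 0.14 (SD, *n*=3) in wild-type and 0.41 ± 0.14 (SD, *n*=3) in *Pax9*-null embryos, or 50.4% of wild-type. The values rest on 82 to 101 reads in *Pax9*-null and 176 to 217 reads in wild-type libraries. All 8 markers of differentiating neurons had a lower mean in *Pax9*-null embryos, as did 50.2% of all tested genes. Their log2 differences ran from −2.10 for *Cntn2* to −0.03 for *Elavl4*. Of the 8, 3 were called lower (*Elavl3*, *Nefm* and *Cntn2*), as were 12.0% of all tested genes. The sum of the 8, to which *Tubb3* gave the most (adjusted *P*=0.11 by limma), was 61.6 to 88.4 RPKM in *Pax9*-null libraries. In wild-type replicates 1 to 3 it was 96.8, 99.0 and 177 RPKM. No marker was without reads in any library, and the part of these markers in the difference of *Slit1* was not tested. The markers of neural tube progenitors and floor plate, a known source of Slit proteins, overlapped between genotypes (22.8 to 26.7 RPKM in *Pax9*-null, 14.9 to 29.7 RPKM in wild-type).

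*Slit2* (ENSMUSG00000031558, chr5:47983138-48307733), the ligand most studied in axon repulsion and heart development, had a smaller difference. In *Pax9*-null replicates 1 to 3 its log2 RPKM was 1.0, 1.04 and 0.78, against 1.74, 1.19 and 1.69 in wild-type replicates 1 to 3. Wild-type replicate 2 lay close to the *Pax9*-null libraries, but the groups did not overlap. The log2 difference was −0.60 (standard error 0.19), or 66.1% of the wild-type level, from 511 to 601 reads in *Pax9*-null and 716 to 1076 reads in wild-type libraries.

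*Slit3* (ENSMUSG00000056427, chr11:35121224-35708507), which is expressed in mesoderm and the developing diaphragm and heart, had a log2 RPKM of 0.80, 1.35 and 0.91 in *Pax9*-null replicates 1 to 3. In wild-type replicates 1 to 3 it was 2.26, 1.46 and 1.81. *Pax9*-null replicate 2 and wild-type replicate 2 came closest to each other, without overlap. The log2 difference was −0.82 (standard error 0.24), or 56.5% of the wild-type level, from 122 to 177 reads against 205 to 369 reads.

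Of the receptors, *Robo1* and *Robo4* were called lower, at 58.9% and 55.3% of the wild-type level, and *Robo2* was not called, at 81.5%. Whether the receptors differed from each other in this was not tested. *Robo1* (ENSMUSG00000022883, chr16:72308306-73046095) and *Robo2* (ENSMUSG00000052516, chr16:73891839-74411825) are the main Slit receptors of axons and migrating cells, and both lie on chromosome 16 on opposite strands.

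*Robo1* was the most abundant of the 9 genes per length. Log2 RPKM values were 2.63, 3.19 and 2.54 in *Pax9*-null replicates 1 to 3 and 4.09, 3.08 and 3.48 in wild-type replicates 1 to 3. *Pax9*-null replicate 2 was above wild-type replicate 2, so that the groups overlapped. The log2 difference was −0.76 (standard error 0.27, 95% interval −1.39 to −0.14, adjusted *P*=0.0931 by limma). The spread of 1.01 among the wild-type libraries was wider than the difference itself. With 1 library left out at a time, *Robo1* was called in 2 of 6 fits, those without replicate 2 of either genotype.

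*Robo2* had a log2 RPKM of 1.14, 1.64 and 0.87 in *Pax9*-null replicates 1 to 3 and of 1.88, 1.18 and 1.47 in wild-type replicates 1 to 3. The genotypes overlapped widely, and both the second highest and the lowest of the 6 values were *Pax9*-null. *Robo2* differed by −0.30 in log2 with a 95% interval of −0.88 to 0.29 (adjusted *P*=0.431 by limma). This interval includes no change as well as the difference measured for *Robo1*.

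*Robo4* (ENSMUSG00000032125, chr9:37401897-37415115) is the receptor of endothelial cells, where it is known for stabilising vessels. Its values were −0.87, −0.91 and −0.69 in *Pax9*-null replicates 1 to 3 and 0.29, −0.26 and 0.06 in wild-type replicates 1 to 3 on the log2 RPKM scale, without overlap. The log2 difference was −0.86 (standard error 0.23, 95% interval −1.39 to −0.32, adjusted *P*=0.0533 by limma). It was the lowest of the 9 genes, with 32 to 38 reads in *Pax9*-null and 54 to 82 reads in wild-type libraries. Of 9 endothelial markers 8 had a lower mean in *Pax9*-null embryos (median log2 difference −0.46), as did 50.2% of all tested genes. *Cdh5* and *Tie1* were called lower, as were 12.0% of all tested genes, while *Tek* (−0.05) and *Emcn* (0.08) hardly differed. The summed levels overlapped, at 65.6 to 79.1 RPKM in *Pax9*-null and 74.1 to 118 RPKM in wild-type libraries. Wild-type replicate 1 gave the 118 RPKM, against 82.2 and 74.1 RPKM in wild-type replicates 2 and 3. No marker was without reads. The part of the endothelial content in the difference of *Robo4* was not tested.

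The log2 differences of the adaptors ran from −0.70 to −0.40, and *Srgap3* and *Srgap2* were called lower. *Srgap3* (ENSMUSG00000030257, chr6:112717971-112947266), which acts in brain development, had a log2 RPKM of 0.67, 0.88 and 0.79 in *Pax9*-null replicates 1 to 3 and 1.44, 1.27 and 1.72 in wild-type replicates 1 to 3. The groups were clearly apart, and the spread within the *Pax9*-null libraries was 0.21. The log2 difference was −0.70 (standard error 0.17, 95% interval −1.10 to −0.30, adjusted *P*=0.0472 by limma), or 61.7% of the wild-type level, from 181 to 208 reads against 292 to 408 reads.

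*Srgap2* (ENSMUSG00000026425, chr1:131285251-131527352), which shapes cell protrusions and neuronal branching, was the most abundant adaptor, with a log2 RPKM of 1.78, 2.07 and 1.87 in *Pax9*-null replicates 1 to 3 and 2.57, 2.15 and 2.39 in wild-type replicates 1 to 3. Replicate 2 of both genotypes lay next to each other, without overlap. Between the genotypes *Srgap2* differed by −0.46 in log2 (standard error 0.15, 95% interval −0.82 to −0.11, adjusted *P*=0.0807 by limma), from 498 to 608 reads against 687 to 945 reads.

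*Srgap1* (ENSMUSG00000020121, chr10:121780991-122047315), an adaptor of Robo in cell guidance, was not called. Its log2 RPKM was 0.26, 0.36 and 0.16 in *Pax9*-null replicates 1 to 3 and 0.92, 0.34 and 0.70 in wild-type replicates 1 to 3. Wild-type replicate 2 fell between the *Pax9*-null libraries, so that the groups overlapped. *Srgap1* differed by −0.40 in log2 (95% interval −0.87 to 0.08, adjusted *P*=0.207 by limma), from 119 to 134 reads against 142 to 219 reads.

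For single receptors and adaptors the two-sided exact permutation test gave *P*=0.1 for *Robo4*, *Srgap2* and *Srgap3*, the smallest value that 3 against 3 libraries allow, 0.2 for *Robo1* and *Srgap1*, and 0.4 for *Robo2*. Exons of *Srgap1* and *Srgap3* overlap a non-coding gene each (*Gm48804* on the same strand and *Gm44081* on the opposite strand), and the study's counting is described only as default featureCounts settings. Reads from such shared bases cannot be assigned with certainty.

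Within a library, ligand and receptor levels were set against each other as the difference of their log2 RPKM, without a test. *Slit3* stood below *Robo1* by nearly the same amount in every library. The difference was −1.82, −1.84 and −1.63 in *Pax9*-null replicates 1 to 3 and −1.83, −1.63 and −1.67 in wild-type replicates 1 to 3, so that the genotypes overlapped and their means differed by −0.06. *Slit3* against *Robo2* was −0.34, −0.29 and 0.04 in *Pax9*-null replicates 1 to 3. In wild-type replicates 1 to 3 it was 0.38, 0.27 and 0.34, with no overlap and a shift of −0.53. Nothing is read from this shift, since the family was chosen by the Slit values. *Slit3* and *Robo2* also differ in GC content (55.0% and 42.7%). With trends on length and GC content removed, as described below, their log2 differences were −0.47 and −0.17. *Slit2* against *Robo1* overlapped between genotypes. The *Pax9*-null mean was −1.84 ± 0.27 (SD, *n*=3) and the wild-type mean −2.01 ± 0.30 (SD, *n*=3). *Slit2* against *Robo2* overlapped as well, with means of −0.28 ± 0.28 (SD, *n*=3) and 0.03 ± 0.18 (SD, *n*=3). *Robo1* exceeded *Srgap1* by 2.53 ± 0.27 (SD, *n*=3) in the *Pax9*-null libraries. In the wild-type libraries it did so by 2.90 ± 0.23 (SD, *n*=3), again with overlap.

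**Figure D2:**
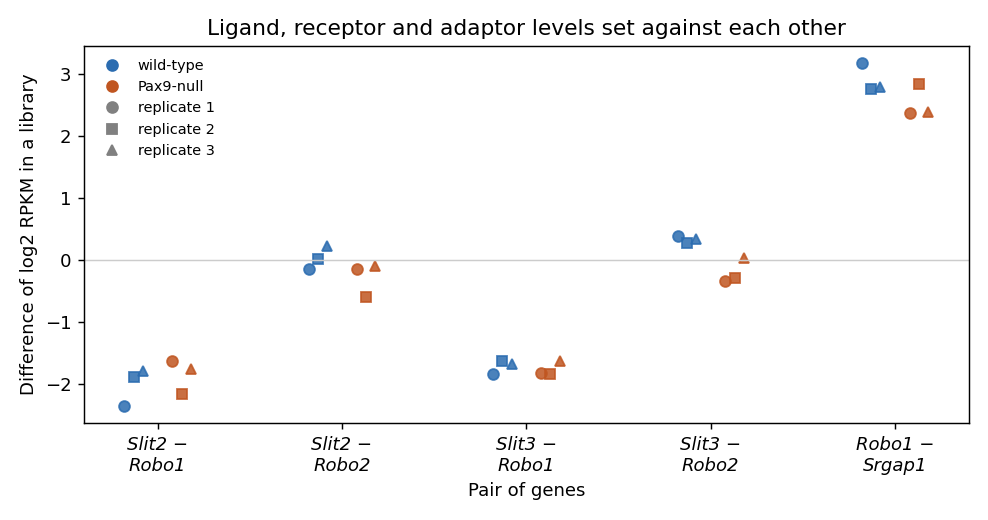
Difference of log2 RPKM between the genes of 5 pairs (vertical axis) in each library, with wild-type in blue, *Pax9*-null in orange and the replicate number shown by the symbol. *Slit3* minus *Robo1* stays between −1.84 and −1.63 in all 6 libraries, and *Slit3* minus *Robo2* is the only pair of the 5 in which the genotypes do not overlap. The family was chosen by the Slit values, and no pair was tested.

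The order of the levels per length was similar in both genotypes. This order depends on the summed exon lengths, such as 25433 bp for *Slit2* and 6067 bp for *Slit3*. In wild-type embryos *Robo1* was highest, with a median of 11.1 RPKM, and did not overlap *Srgap2* (5.24 RPKM). *Slit3* (3.51 RPKM), *Slit2* (3.22), *Robo2* (2.77), *Srgap3* (2.71) and *Slit1* (2.62) followed, and each of these overlapped its neighbour in this order, as did *Srgap2* and *Slit3*. *Srgap1* (1.62 RPKM) and *Robo4* (1.04 RPKM) were lower without overlap with the gene above them. In *Pax9*-null embryos *Robo1* (6.17 RPKM) and *Srgap2* (3.65 RPKM) were again the highest and *Srgap1* (1.20 RPKM) and *Robo4* (0.545 RPKM) had the lowest means. *Slit1*, at 1.34 RPKM, overlapped *Srgap1* there and lay clear below *Srgap3*.

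The libraries of one genotype differed in a shared way. Wild-type replicate 2 was the lowest of its genotype for all 9 genes, with a median deviation of −0.32 from the genotype mean, and wild-type replicate 1 was the highest for 7 of them (median deviation 0.26). *Pax9*-null replicate 2 was the highest of its genotype for 7 genes (median deviation 0.10). The median deviation over all tested genes was between 0 and 0.01 in each library. *Robo1*, *Robo2* and *Slit3* had the widest ranges among the wild-type libraries, at 1.01, 0.70 and 0.81 in log2.

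Across the table, the differences between genotypes followed the length and the GC content of the genes. Over 13524 annotated genes, which share the libraries and are no replicates, the log2 difference had a Spearman rank correlation of −0.40 with summed exon length and of −0.44 with GC content. The 9 genes are long, with 5302 to 25433 bp of summed exons in GENCODE M21, and fall in the 4 upper deciles of length. The decile medians there ran from −0.08 to −0.20, with 16.7% to 21.2% of the genes called lower. All 9 genes lay below the median of their own decile. The nearest was *Robo2* (−0.30 against −0.20).

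**Figure D3:**
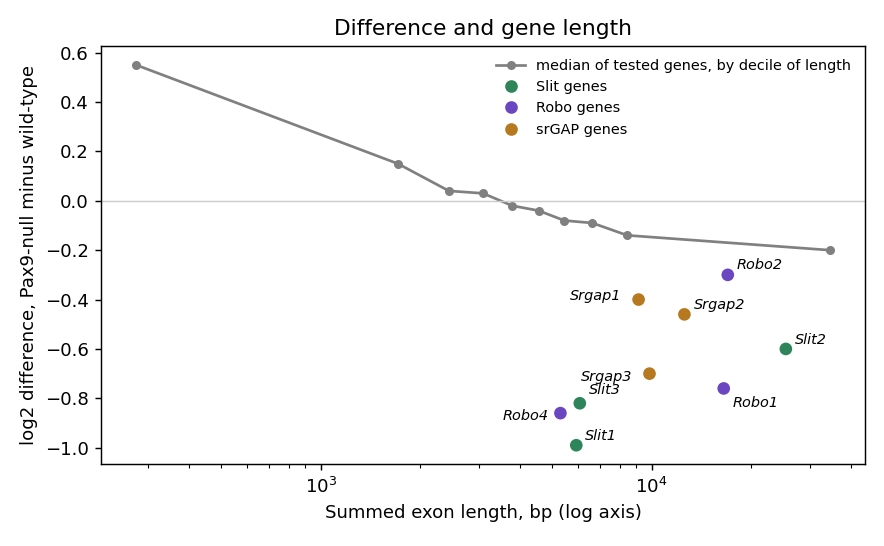
Log2 difference between genotypes (vertical axis, *Pax9*-null minus wild-type) against summed exon length in bp (horizontal log axis) for the 9 genes, with the median of all tested genes in each decile of length in grey. The grey line runs from 0.55 for the shortest to −0.20 for the longest genes, and all 9 genes lie below it.

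When trends on length and GC content were taken out of every library, all 9 differences stayed below 0. Of the 6 receptor and adaptor genes 0 were then called by limma (adjusted *P* values from 0.193 to 0.656) and 1 had an unadjusted *P* under 0.05, while the share of all genes called lower was 1.63%. *Slit1*, *Robo4*, *Slit3* and *Robo1* kept the largest differences, at −0.55, −0.49, −0.47 and −0.44. *Srgap1* and *Srgap2* were left at −0.13 and −0.11. With the trend of length alone removed, *Robo1*, *Robo4* and *Srgap3* were called, with 11.7% of all genes called lower, and *Robo2* was left at −0.03. The part of length and GC content and that of the genotype cannot be told apart in these 6 libraries.

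**Figure D4:**
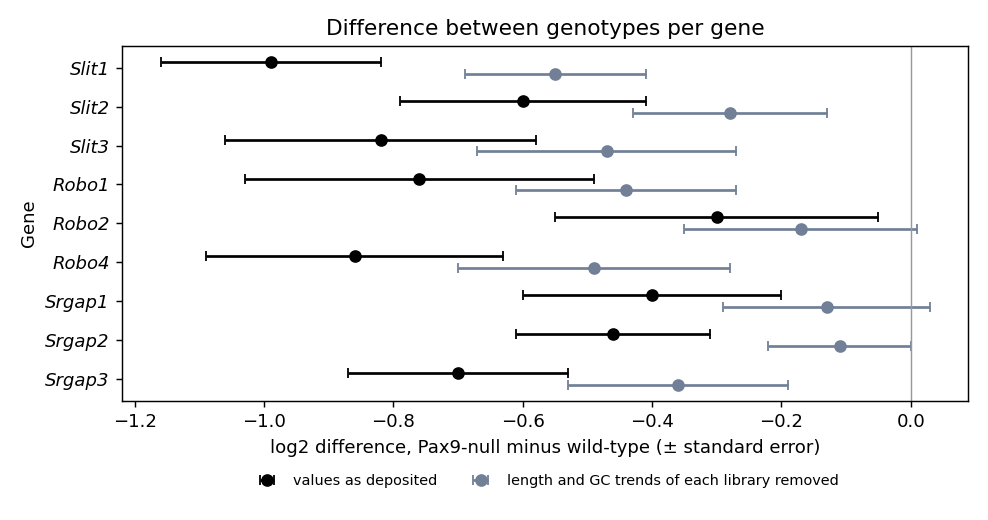
Log2 difference between genotypes for each of the 9 genes (horizontal axis, *Pax9*-null minus wild-type), with bars of ± 1 standard error, for the values as deposited in black and after removal of trends on length and GC content in grey. All points lie below 0, and each grey point is closer to 0 than the black point of the same gene.

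The calls of the receptors and adaptors changed when 1 library was left out at a time, as did the share of all tested genes called lower. *Robo4* and *Srgap2* were called only without replicate 2 of either genotype, and *Srgap3* also without wild-type replicate 1. When replicate 2 of either genotype was left out (*Pax9*-null, then wild-type), 4 of the 6 genes were called lower, with 10.2% and 11.6% of all tested genes. Without wild-type replicate 1 it was 1 of 6, with 5.15% of all tested genes. Without *Pax9*-null replicate 1, *Pax9*-null replicate 3 or wild-type replicate 3, limma called 0 of the 6, with 0.295%, 0.162% and 6.64% of all tested genes called lower, and 2, 3 and 4 of the 6 had an unadjusted *P* under 0.05. Wild-type replicate 3 is the library with few cardiomyocyte transcripts. The log2 differences of the 9 genes stayed below 0 in all of these fits.

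Other genes of the pathway were followed in a list of 46 genes arranged by role, of which 45 were tested. In *Pax9*-null embryos 10 were called lower and 4 higher, where 12.0% and 14.7% of all tested genes were called lower and higher, and the median log2 difference was −0.16. Netrin system genes were the most uniform in direction of the 4 roles described here. Netrins and their receptors Dcc, neogenin and Unc5 act with Slit and Robo in guidance, and Robo can silence the attraction of axons by netrin. All 7 tested genes of the netrin system had a lower mean (median −0.64), as did 50.2% of all tested genes. *Ntn1* and *Neo1* were called lower, as were 12.0% of all tested genes.

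*Ntn1*, the secreted netrin of the floor plate, had a log2 RPKM of 2.80, 2.96 and 2.96 in *Pax9*-null replicates 1 to 3 and 3.50, 3.52 and 3.62 in wild-type replicates 1 to 3. The spread was small in both genotypes and the log2 difference was −0.64 (standard error 0.10, adjusted *P*=0.0166 by limma). With the trends on length and GC content taken out, *Ntn1* was at −0.19 and not called (adjusted *P*=0.229 by limma). *Dcc*, the netrin receptor that Robo binds, was at −0.09, −0.24 and −0.31 against 0.34, −0.03 and 1.05, without overlap, and had an adjusted *P* of 0.144 by limma for a log2 difference of −0.67. *Ntn4* had the lowest log2 difference of the netrin group (−0.76) and *Unc5c* the highest (−0.31), with adjusted *P* values of 0.123 and 0.272 by limma.

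Of the 11 genes grouped as ligand-binding and co-receptor proteins, *Gpc1* and *Sdc3* were called lower, as were 12.0% of all tested genes. Both encode heparan sulphate proteoglycans of the cell surface. *Sdc3* had the lowest log2 difference of the group, at 1.67, 1.71 and 1.73 log2 RPKM in *Pax9*-null and 2.71, 2.46 and 2.65 in wild-type replicates 1 to 3 (log2 difference −0.90, standard error 0.12, adjusted *P*=0.0125 by limma). It was −0.46 and still called with the length and GC content trends taken out (adjusted *P*=0.0952 by limma). The related *Sdc4* had the highest, at 0.24 with an adjusted *P* of 0.13 by limma. Of the Abl, Ena and other cytoskeletal effectors, 4 of 11 were called lower (*Abl1*, *Abl2*, *Evl* and *Clasp1*), as were 12.0% of all tested genes. *Abl1*, the tyrosine kinase that acts on the Robo tail, had the lowest log2 difference of this group, −0.69 (standard error 0.14, adjusted *P*=0.0343 by limma), and −0.18 with the length and GC content trends taken out (adjusted *P*=0.206 by limma). *Enah* had −0.34 (adjusted *P*=0.139 by limma). The highest, *Cap2*, had 0.34 with a wild-type value of 2.43 in replicate 3 against 4.56 and 4.44 in replicates 1 and 2 (adjusted *P*=0.67 by limma).

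Of the trafficking and shedding genes *Ndfip1* and *Ndfip2*, which direct Robo1 to degradation, were called higher among 4 genes, as were 14.7% of all tested genes. *Ndfip2* rose by 0.43 in log2 (adjusted *P*=0.0584 by limma, and 0.144 without the length and GC content trends), and *Usp33*, a deubiquitinase of Robo1, was at −0.05 (adjusted *P*=0.765 by limma).

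**Figure D5:**
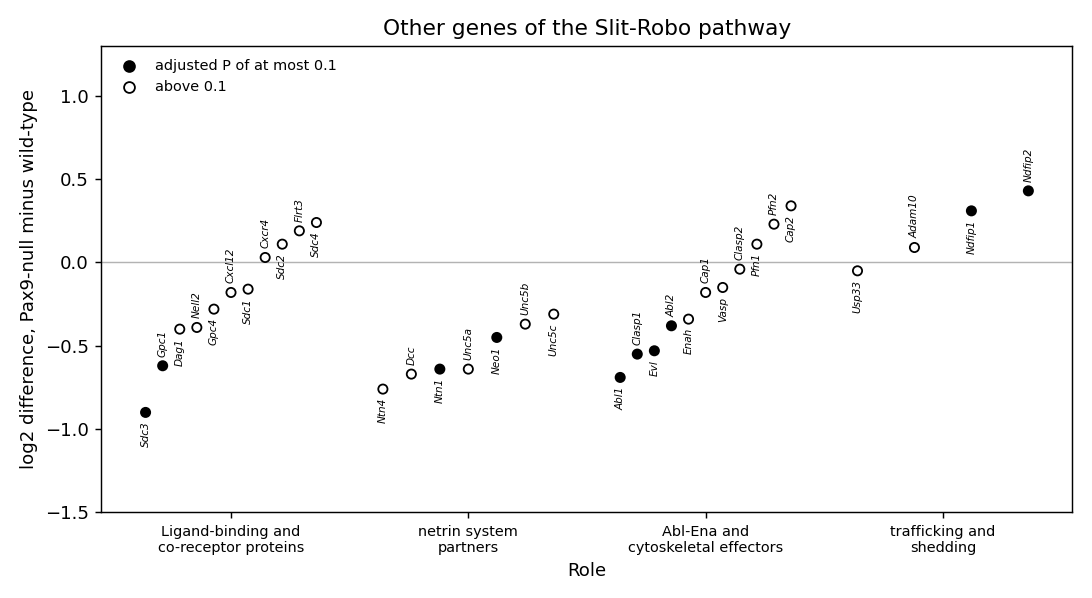
Log2 difference between genotypes (vertical axis, *Pax9*-null minus wild-type) for the tested genes of 4 roles of the pathway list, sorted within each role, with filled points for an adjusted *P* of at most 0.1 in limma. All 7 netrin system genes lie below 0, and the filled points above 0 are *Ndfip1* and *Ndfip2*.

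Neural crest cells, which migrate through the arches and carry Robo receptors, were followed by 5 markers. Of these, 4 had a lower mean in *Pax9*-null embryos, as did 50.2% of all tested genes, and *Foxd3* was at 0.04. *Sox10* was called lower, as were 12.0% of all tested genes. The summed levels, to which *Ets1* gave the most, were 23.2 to 28.2 RPKM in *Pax9*-null and 28.2 to 34.0 RPKM in wild-type libraries. They met at *Pax9*-null replicate 2 and wild-type replicate 2. *Pax9*-null replicate 2 was also the highest of its genotype for 7 of the 9 genes, and wild-type replicate 2 the lowest for 9. No neural crest marker was without reads, and the part of neural crest content in the differences of the 9 genes was not tested.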

How the data were processed

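One RNA library was sequenced for each of 6 embryos, 3 per genotype, from the dissected pharyngeal tissue. The authors trimmed reads with Trimmomatic, kept unique and non-redundant reads, sub-sampled them towards the smallest library, used STAR for alignment to GRCm38 and counted reads per Ensembl gene with featureCounts. The deposited values are log2 RPKM, made by the authors before deposition, and run from −7.15 to 11.02. Sub-sampling and the removal of redundant reads limit the precision of low genes. Division by length makes comparisons of levels between genes depend on the exon lengths used.

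Genotypes were compared with limma 3.58.1 in R 4.3.3 (two-sided, no covariates, eBayes variances following expression level) on the log2 values of the 13547 genes that averaged 0.5 RPKM or more. Adjustment was by Benjamini-Hochberg over these genes, which were called at 0.1, the threshold of the study. The code was tested on simulated data. Single genes were also compared by an exact permutation test. Intervals are at 95%.

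The members and lists were chosen with earlier results of these data known. The genes named are the 10 members, *Pax9*, *Dcc*, *Ntn1*, *Enah* and *Abl1*, and in each role of the pathway list the lowest and the highest difference, together with called genes of groups with 5 or fewer calls, which were named after their values were seen. The genes of 1 further role count in the totals of the pathway list and are not reported here.

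Reads were worked out from the values as whole numbers with a prior count of 0.5 and exon lengths of GENCODE M21. At these lengths 80.7% of all values were whole within 0.05 of a read, as were those of 7 of the 9 members. *Robo1* and *Robo2* did not give whole reads at the GENCODE M21 length. Among other lengths 1 (22689 bp) did for *Robo1* and 2 did for *Robo2*, so that the counted exons differ from the annotation used here and no reads are given. The GENCODE M21 lengths were kept for the length trends, and both genes are in the upper decile at either length. GC content came from the transcripts of GENCODE M21, and 30 genes had no annotation. Trends with length and GC content were fitted to each library's deviations from the gene means by natural splines with 5 degrees of freedom.

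The alternatives were pseudocounts of 0.1 and 1 RPKM, no filter or 5 RPKM on average, a replicate block, median centring, library weights, quantile normalization, eBayes with a constant prior, removal of trends with length or with length and GC content, a threshold of 0.05, and each library left out in turn. The limma *P* values set the difference between genotypes against the spread between these embryos, moderated by the variances of other genes. The permutation *P* values cannot fall below 0.1 with 3 against 3 libraries.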

Additional observations from a re-analysis of the deposited data

How the results depend on the processing

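Of the 9 Slit, Robo and srGAP genes, which include the 3 ligands that chose the family, 7 were called lower in the values as deposited. The number was 1 with the filter at 5 RPKM (where *Robo1* alone was tested), 2 at a threshold of 0.05 and 0 after removal of trends on length and GC content (limma, with 3 of 9 at an unadjusted *P* under 0.05). Of the 6 receptors and adaptors, 4 were called as deposited, 1 at 0.05, and 0 after that removal or with a replicate block (with 1 and 4 at an unadjusted *P* under 0.05). Over all tested genes, the numbers called in either direction were 1335 at 0.05 and 512 after that removal, against 3611. Those of the pathway list, also in either direction, were 6 and 1 against 14. The share of all tested genes called lower was 12.0% as deposited and 3.71% at 0.05. It was 1.63% after that removal and 3.65% with a replicate block. With 1 library left out, the numbers ran from 1 to 7 for the 9 genes, from 175 to 3578 over all genes and from 2 to 15 for the pathway list. The correlations of same-numbered deviations were −0.02, −0.17 and 0.26, and those of other pairs of libraries ran from −0.35 to 0.36. They cannot show whether the replicate numbers paired the embryos, since deviations from a mean of 3 libraries depend on each other. With a replicate block the counts were 1, 1377 and 6 in the same order. The 9 genes kept their direction under every alternative in which they were tested. Reversals were found for *Enah* (0.02) and *Usp33* (0.01) after removal of both trends, for *Usp33* with the length trend removed (0.18) and for *Cap2* without wild-type replicate 3 (−0.36). *Cap2* was 0.71 without wild-type replicate 1. The cause was not tested. No scaling moved the median of all genes by more than 0.1 in log2. Depth limits *Robo4* most, with 32 to 82 reads.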
